A study of Homo sapiens with 6 samples.

Results

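The genes described are 8 aldo-keto reductases: AKR1A1, the AKR1B genes AKR1B1, AKR1B10 and AKR1B15, and the AKR1C genes AKR1C1, AKR1C2, AKR1C3 and AKR1C4. They were taken by symbol from 54628 genes, and the family was chosen by the measured fall of AKR1C1 in the comparison described here, so the fold changes of its genes are given as a description and support nothing on their own. Aldo-keto reductases are soluble enzymes that use NADPH to reduce aldehydes and ketones to alcohols. Their substrates include sugars, products of lipid peroxidation, retinal, prostaglandins and ketosteroids. In human cells several AKR1B and AKR1C genes are known targets of NRF2, the transcription factor of the antioxidant response, and they are studied in tumours for their part in steroid metabolism and in the breakdown of carbonyl-containing drugs.

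RNA-seq was made from 6 samples of U87, a long-established human glioblastoma cell line, which had been grown in co-culture and then recovered by flow sorting. The labels call all of them cycling cells and divide them into cells that received mitochondria (received, n = 3) and cells that did not (not received, n = 3), and the series title names astrocytes as the source of the mitochondria. The labels name no further genetic change, agent, time or dose, and do not say how cycling cells or receipt of mitochondria were recognised. They do not say whether replicates were grown separately, so a p-value here reflects only how these libraries vary, and that variation may be technical.

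Library totals ran from 17879552 to 46392491 counts, and 3 counts corresponded to 0.0660 to 0.167 CPM (read counts scaled to a common library size by TMM factors), a floor that covers counting error only. Not-received replicate 2 was the deepest library and stood apart on the first principal component, at -44.4, against -13.8 and -14.8 for not-received replicates 1 and 3. Of the 8 markers fixed for the glioblastoma line, VIM, CD44, FN1, CHI3L1 and NES were expressed, while SOX2, GFAP and S100B were under 1 CPM in every library. VIM (log2 fold change 0.26 ± 0.07) and NES (0.46 ± 0.09) were called higher in received cells, and CHI3L1 (-0.90 ± 0.10) and CD44 (-0.23 ± 0.05) lower. FN1 (-0.36 ± 0.16) was not called. The calls of VIM and CD44 were lost when any received library was left out. Of 10 astrocyte markers, AQP4 and ALDH1L1 had 0 counts in all libraries and GFAP had 4 to 13. The summed astrocyte list stood at 379 to 413 CPM in received and 315 to 365 CPM in not-received cells, and most of it was GJA1, which cultured glioma cells also express. GJA1 (0.38 ± 0.07) and SOX9 (0.31 ± 0.08) were called higher in received cells, SOX9 not without received replicate 1 or 3. The other tested astrocyte markers, ALDOC (-0.21 ± 0.08) and SLC1A3 (-0.20 ± 0.10), had negative fold changes and were not called. Of 8 markers of microglia, AIF1, CX3CR1 and P2RY12 had 0 counts in all libraries, and the summed list stood at 498 to 512 CPM in received and 376 to 417 CPM in not-received cells, nearly all of it CD68 (0.36 ± 0.06, called higher). The other tested markers of microglia, TMEM119 (-0.33 ± 0.16) and CSF1R (0.04 ± 0.08), were not called. The part of all these markers in the results below was not tested.

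The AKR1C genes are close copies, which bears on every AKR1C value that follows. The stretch of coding sequence in which AKR1C1 and AKR1C2 differ most is shown beside the same bases of AKR1C3. A read can be given to 1 gene only where it covers a base that differs. Capitals mark positions at which the 3 genes are not all the same, and the stretch runs from coding base 103 to 162 of the GENCODE 29 transcripts.
AKR1C1: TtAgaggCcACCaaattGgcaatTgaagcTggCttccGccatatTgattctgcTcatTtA
AKR1C2: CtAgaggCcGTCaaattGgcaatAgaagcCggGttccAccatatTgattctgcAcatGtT
AKR1C3: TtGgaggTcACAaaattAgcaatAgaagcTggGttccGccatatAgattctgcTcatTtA
AKR1C1 and AKR1C2 differ at 19 of 972 coding bases, and 10 of these lie in this stretch of 60 bases. Coding sequences were 98.0% identical between AKR1C1 and AKR1C2, 91.5% between AKR1C1 and AKR1C3 and 88.7% between AKR1C1 and AKR1C4. Identity was counted over all columns of an alignment, gaps included. Among the AKR1B genes it was 86.2% between AKR1B10 and AKR1B15, whose coding sequences have 951 and 1035 bases. Of their 1035 columns 892 were identical, and the difference in length lowers this value beside those of the AKR1C genes. Identity was 76.3% between AKR1B1 and AKR1B10, and AKR1A1 reached at most 60.6% with any of the others.

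How much of a read could be shared depended on the length that matched. Of all windows of 50 bases in the coding sequence of AKR1C1, 54.5% also occurred in another AKR gene or pseudogene, but of windows of 150 bases, the read length given in the labels, 4.98% did. The matching share of 150-base windows was 7.66% for AKR1C2, 2.67% for AKR1C3 and 0% for AKR1A1, AKR1B1, AKR1B10, AKR1B15 and AKR1C4. These shares count exact matches only. They leave out the bases outside the coding sequence, which is 972 of the 6705 bases of the AKR1C1 transcript used. The sources used here do not give the treatment of reads that match several genes, so the split between AKR1C1 and AKR1C2 is the least certain of these values.

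AKR1C1 and AKR1C2 are also nearly the same upstream of their start sites. The RefSeq upstream sequences used here (GRCh38.p14) matched 6 of the 8 genes, not AKR1B10 or AKR1B15. The 250 bases before the start are shown for AKR1C1 on chr10:4963165-4963414 (plus strand), for AKR1C2 on chr10:5003858-5004107 (minus strand) and for AKR1C3 at 1 of its 2 start entries, on chr10:5094164-5094413 (plus strand). Capitals mark the letters CCAAT, read on the opposite strand.
AKR1C1: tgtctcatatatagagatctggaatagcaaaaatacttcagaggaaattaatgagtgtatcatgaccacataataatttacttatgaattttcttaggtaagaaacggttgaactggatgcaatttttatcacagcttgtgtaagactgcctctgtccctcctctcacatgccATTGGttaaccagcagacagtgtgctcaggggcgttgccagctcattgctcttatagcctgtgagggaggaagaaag
AKR1C2: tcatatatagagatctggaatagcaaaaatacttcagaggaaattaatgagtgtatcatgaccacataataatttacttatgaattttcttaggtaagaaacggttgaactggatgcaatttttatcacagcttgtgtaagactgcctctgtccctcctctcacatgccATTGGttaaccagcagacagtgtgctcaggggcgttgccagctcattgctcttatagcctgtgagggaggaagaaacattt
AKR1C3: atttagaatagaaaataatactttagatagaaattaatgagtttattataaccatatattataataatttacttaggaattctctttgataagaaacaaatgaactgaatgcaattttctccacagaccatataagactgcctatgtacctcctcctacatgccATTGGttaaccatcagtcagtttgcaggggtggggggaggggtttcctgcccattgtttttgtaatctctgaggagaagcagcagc
The AKR1C1 and AKR1C2 sequences share an unbroken identical run of 245 bases, so that the CCAAT letters begin 77 bases before the start of one and 81 before that of the other. This AKR1C3 sequence shares a run of at most 19 bases with either of them, and its CCAAT letters begin 86 bases before the start. The other AKR1C3 entry, on chr10:5048531-5048780 (plus strand), shares at most 12 bases with them and has the letters 73 bases before the start. Searched on both strands, CCAAT was found in 32.0% of 35116 RefSeq upstream windows of the same length, in at least 1 window each of AKR1C1, AKR1C2, AKR1C3 and AKR1B1, and in none of AKR1A1 or AKR1C4. The NRF2 binding core TGACNNNGC occurs in 10.9% of those windows and the AP-1 letters TGACTCA in 4.20%. Neither was found in any window of these 6 genes, which says only that the letters are not in these 250 bases.

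AKR1C1 encodes a ketosteroid reductase best known for inactivating progesterone, and it was the AKR1C gene with the highest counts. It stood at 221, 169 and 204 CPM in not-received replicates 1, 2 and 3 and at 78.7, 79.9 and 77.4 CPM in received replicates 1, 2 and 3. The groups were far apart, and the received libraries lay within a few percent of each other: the coefficient of variation was 1.58% there and 13.4% in not-received cells. The means were 78.7 ± 1.24 and 198 ± 26.6 CPM (SD, n = 3 each), 2.51-fold lower in received cells, with a log2 fold change of -1.33 ± 0.09 (SE, edgeR). In RNA from many sorted cells, fewer cells that express a gene and less RNA per cell cannot be told apart.

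AKR1C2, which inactivates the androgen dihydrotestosterone, had far fewer counts than AKR1C1. It stood at 15.9, 15.9 and 14.9 CPM in not-received cells and at 8.08, 9.54 and 10.5 CPM in received cells. Here too every received library lay below every not-received library, at a log2 fold change of -0.74 ± 0.11.

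AKR1C3 makes testosterone from androstenedione and prostaglandin F from its precursors. It stood at 36.8, 31.4 and 42.8 CPM in not-received cells and at 28.1, 28.2 and 24.8 CPM in received cells. The groups did not overlap, but the gap between the lowest not-received and the highest received library was small, and the log2 fold change was -0.45 ± 0.11. Leaving out any 1 received library ended its call, with log2 fold changes from -0.47 to -0.38.

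AKR1C4, the liver enzyme of the group, which takes part in bile acid synthesis, was barely counted. It had 11, 13 and 2 counts in not-received and 0, 6 and 1 counts in received cells, too few to be tested. The library with 0 counts allows a level of up to 0.139 CPM.

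**Figure D1:**
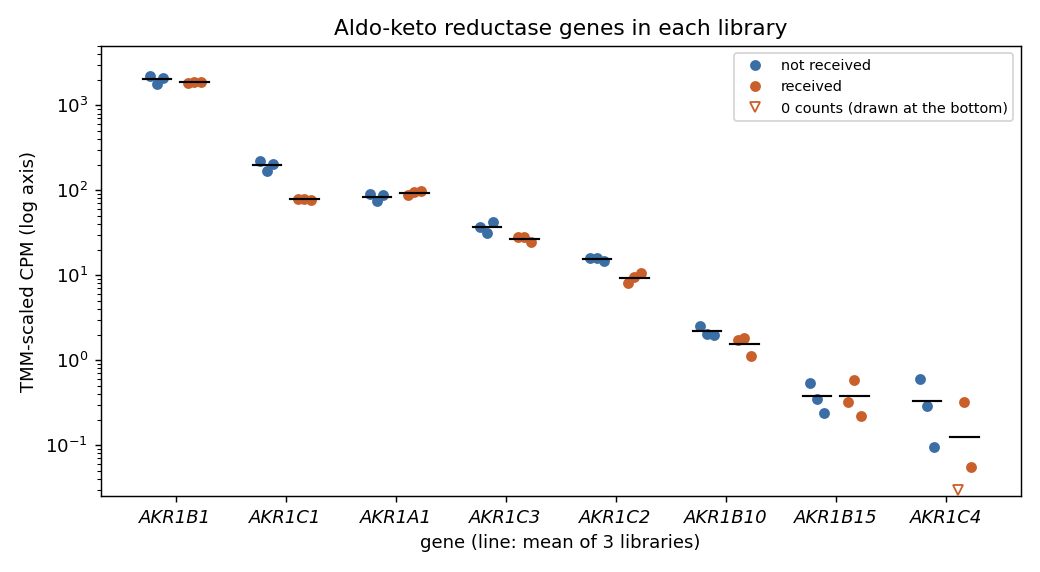
TMM-scaled CPM of the 8 genes in each library on a log axis, with not-received libraries in blue, received libraries in orange and a line at each group's mean. AKR1B1 is the highest in all 6 libraries, and the received libraries lie below the not-received ones for AKR1C1, AKR1C2, AKR1C3 and AKR1B10.

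Of the 6 genes with enough counts to be tested, AKR1C1, AKR1C2 and AKR1C3 were called lower and 0 were called higher (edgeR quasi-likelihood test, adjusted p under 0.05 over all genes). Among all 14100 genes tested, 9.67% were called lower and 9.21% higher. With scaling by library size alone, 60.3% of all calls were higher, against 48.8% with composition factors, and the same 3 genes were called lower. Groups did not overlap for 4 of the 6, the 3 AKR1C genes and AKR1B10, where 39% of all genes tested had groups that did not overlap. Since AKR1C1 chose the family in this same comparison, nothing is read from these counts.

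The sum over AKR1C1 to AKR1C4 does not change when reads move between them. It was 274, 216 and 262 CPM in not-received cells and 115, 118 and 113 CPM in received cells, with a log2 fold change of -1.12 ± 0.08 when the 4 rows were summed before the fit. The summed AKR1C level was therefore lower in every received library, however the counted reads were divided among the copies. Any reads discarded for matching several genes would be missing from the sum.

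The make-up of the AKR1C counts is given as a description, since a lower AKR1C1 share restates the value by which the family was chosen. AKR1C1 took 80.6%, 78.0% and 77.9% of them in not-received libraries and 68.5%, 67.8% and 68.7% in received libraries. The exact 95% binomial interval, which covers counting error only, was 76.8% to 79.0% in not-received replicate 3 and 66.6% to 70.7% in received replicate 3. The share of AKR1C3 was 14.8% ± 1.49 in not-received and 23.4% ± 1.31 in received cells (SD, n = 3 each), while its own level in CPM was lower in received cells. The share of AKR1C2 was 6.28% ± 0.936 and 8.14% ± 1.14 and overlapped between the groups. There were 4.76 to 6.00 counts of AKR1C1 for each count of AKR1C3 in not-received libraries and 2.80 to 3.13 in received libraries. Per count of AKR1C2 there were 10.6 to 13.9 and 7.38 to 9.74. That AKR1C1 had the largest difference of the 3 tested was fixed by the choice of the family, and its split from AKR1C2 is uncertain.

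**Figure D2:**
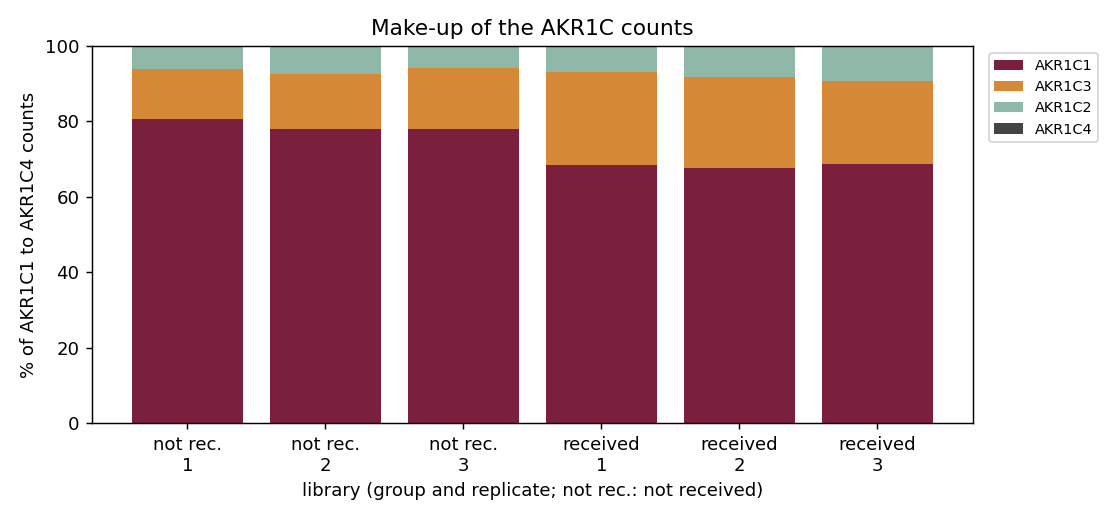
Share of the summed AKR1C1 to AKR1C4 counts, in percent, taken by each gene in each of the 6 libraries. AKR1C1 takes 77.9% to 80.6% in not-received and 67.8% to 68.7% in received libraries, and the AKR1C3 segment is taller in the received libraries.

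The AKR1C genes lie side by side on chromosome 10. The nearest tested protein-coding genes outside the family, chosen after the data were seen, were KLF6 on one side and NET1 on the other in the RefSeq gene order. KLF6, a zinc finger transcription factor, was called lower (-0.22 ± 0.06 on the log2 scale, edgeR adjusted p = 0.0224), a call lost without any 1 of the received libraries. NET1, a guanine nucleotide exchange factor, was not (-0.01 ± 0.08, edgeR adjusted p = 0.918).

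AKR1B1, aldose reductase, turns glucose into sorbitol in the polyol pathway and can also make prostaglandin F. It was the most abundant of the 8, at 2208, 1760 and 2083 CPM in not-received cells and 1845, 1896 and 1875 CPM in received cells. The groups overlapped, because not-received replicate 2 lay below all received libraries while the other 2 of its group lay above them. The log2 fold change was -0.11 ± 0.07 and was not called. Without not-received replicate 2 it was -0.20 and called lower.

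AKR1B1 has processed pseudogenes, and the counts of those named here were highest in that same library, which was also the deepest. AKR1B1P3 had 75 counts in not-received replicate 2 and 8 and 11 in the other libraries of its group, against 6, 2 and 1 in received cells. In CPM these not-received values were 1.65, 0.434 and 0.526. AKR1B1P7 had 28 counts in not-received replicate 2, 3 and 0 in the others of its group and 0 in every received library. That is 0.616, 0.163 and 0 CPM in not-received replicates 2, 1 and 3. AKR1B1P2 had 20 counts in not-received replicate 2 and 5 and 8 in the others of its group, against 7, 2 and 4 in received cells. Its not-received values were 0.440, 0.271 and 0.383 CPM in that order. Next to 33769 to 80025 counts of AKR1B1 these are few, and their part in the level of AKR1B1 was not tested.

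AKR1B10 reduces retinal and other aldehydes and is mainly an enzyme of the gut, and its neighbour AKR1B15 is its closest copy. AKR1B10 stood at 2.55, 2.05 and 1.96 CPM in not-received and 1.72, 1.82 and 1.11 CPM in received cells. The groups did not overlap, yet the libraries held only 20 to 93 counts, and the log2 fold change of -0.48 ± 0.26 was not called. AKR1B15 had 10, 16 and 5 counts in not-received and 7, 11 and 4 in received cells, too few to be tested, at 0.378 ± 0.153 and 0.379 ± 0.189 CPM. Summed before the fit, AKR1B10 and AKR1B15 had a log2 fold change of -0.40 ± 0.26.

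AKR1A1, aldehyde reductase, is expressed in most tissues. It stood at 89.6, 74.7 and 87.2 CPM in not-received and 87.5, 94.2 and 97.0 CPM in received cells. The groups overlapped, and the log2 fold change of 0.15 ± 0.08 was not called. It was the single tested gene of the 6 with a positive fold change.

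**Figure D3:**
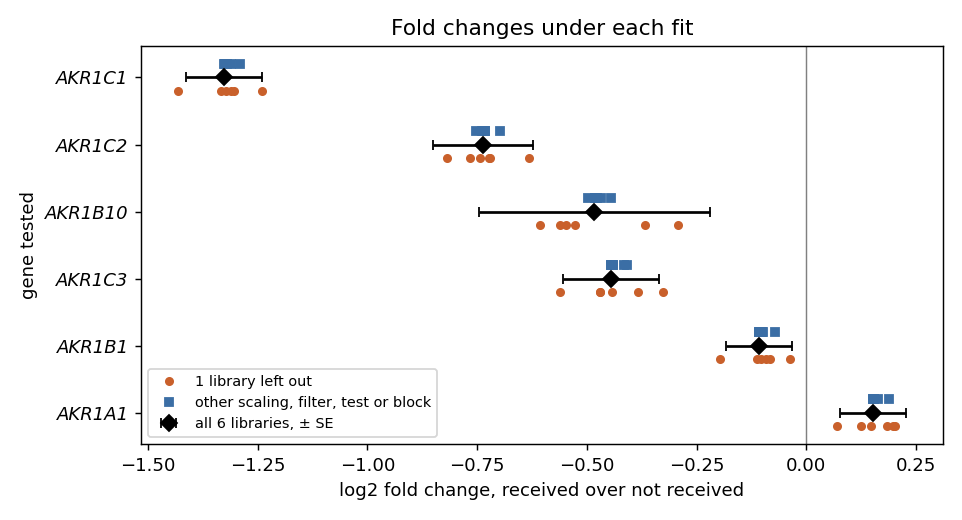
Log2 fold change, received over not received, of the 6 genes tested, with all 6 libraries (black, ± SE), with 1 library left out (orange) and under another scaling, filter, test or replicate block (blue). The values of AKR1C1 run from -1.43 to -1.24, and no value of any of the 6 genes changes sign.

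Levels can be compared between genes only per length. In CPM per kb of coding sequence, not-received cells had 2121 ± 243 for AKR1B1, 204 ± 27.4 for AKR1C1, 85.7 ± 8.16 for AKR1A1, 38.1 ± 5.90 for AKR1C3, 16.0 ± 0.608 for AKR1C2 and 2.30 ± 0.334 for AKR1B10. AKR1B15 (0.365 ± 0.148) and AKR1C4 (0.336 ± 0.260) came last and did not differ beyond their spread. In received cells the order on this scale was the same except that AKR1A1, at 89.5 to 99.2 in the 3 libraries, lay above AKR1C1, at 79.7 to 82.2. The place of AKR1C1 beside AKR1A1 and AKR1C3 depends on the length used. Per kb of the whole annotated transcript, which has 6705 bases for AKR1C1 and 1166 for AKR1A1, AKR1A1 lay above AKR1C1 in both groups, at 71.9 against 29.5 CPM per kb in not-received cells. On that scale AKR1C3 also lay above AKR1C1 in received cells, at 14.9 against 11.7, but below it in not-received cells, at 20.5 against 29.5.

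The genes whose pattern was most like that of AKR1C1 were CCL26, ID1, MMP3, ID2 and SMAD9. Likeness was the root mean square difference of log2 CPM over the 6 libraries after each gene was centred on its mean, and it is a description of these libraries. It was 0.07 for CCL26, a chemokine that attracts eosinophils, which stood at 2.12 ± 0.0915 CPM in received and 5.18 ± 0.911 in not-received cells. It was 0.10 for ID1, an inhibitor of helix-loop-helix transcription factors (114 ± 5.44 and 259 ± 41.8 CPM), 0.13 for the matrix protease gene MMP3, and 0.14 for ID2 and SMAD9. AKR1C2 and AKR1C3 were less like AKR1C1 by this measure, at 0.34 and 0.45. The measure grows with any gap in fold change. Pearson correlations with AKR1C1, which do not, were 0.94 for AKR1C2 and 0.89 for AKR1C3, against 0.98 to 0.99 for the 5 genes. For AKR1B1 the closest genes were TRADD, NOSIP, SLC25A3, SNF8 and GABARAP, all at 0.02 to 0.03. They shared its low value in not-received replicate 2, which follows from their choice by likeness. AKR1C1 lay at 0.61 from AKR1B1.

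**Figure D4:**
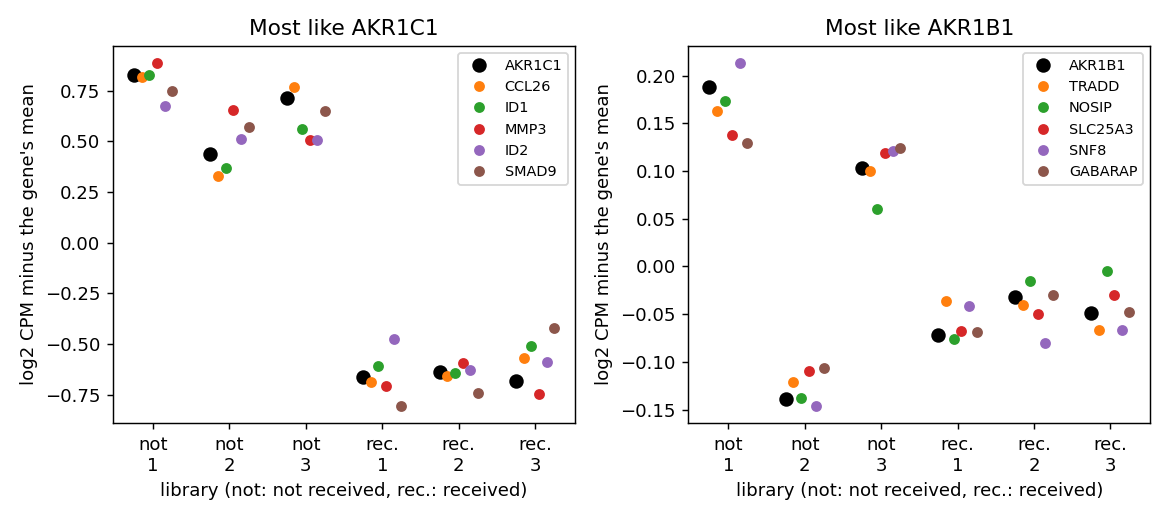
Log2 CPM minus each gene's mean over the 6 libraries, for AKR1C1 and its 5 most similar genes (left) and AKR1B1 and its 5 most similar genes (right). The genes on the left separate the groups, and those on the right have their lowest value in not-received replicate 2. Both patterns follow from choosing the genes by likeness.

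The rest of the superfamily was described in the same way. Of 8 further members, AKR1E2 and AKR1D1 had at most 4 counts in any library and 6 were tested, of which 1 was called lower and 0 higher (median log2 fold change -0.00, as over all genes tested). That 16.7% is near the 18.9% called over all genes, and nothing is read from it. The gene called was AKR7A2, an aldehyde reductase that acts on succinic semialdehyde, at 64.0 ± 1.56 CPM in received and 76.4 ± 5.61 in not-received cells (log2 fold change -0.25 ± 0.07, edgeR adjusted p = 0.0214). Leaving out any received library, or not-received replicate 1, ended this call. AKR7A3, AKR7L and the potassium channel subunits KCNAB1, KCNAB2 and KCNAB3 had log2 fold changes from -0.28 to 0.26. The pseudogene AKR1C7P had 6 to 29 counts a library (0.11 ± 0.39 on the log2 scale, edgeR adjusted p = 0.875).

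Several known NRF2 targets outside the family were lower beside AKR1C1. Of 32 genes of NRF2, its partners and its targets, 30 were tested, of which 11 were called lower and 1 higher, where 9.67% and 9.21% of all genes were. Their median log2 fold change was -0.11, against -0.00 over all genes. This list and those that follow were chosen with earlier results of these data known, so their counts are a description only. ABCC3 and ABCC2, export pumps for conjugated compounds, had log2 fold changes of -1.59 ± 0.11 and -1.24 ± 0.09, HMOX1, heme oxygenase, of -0.92 ± 0.08, and NQO1, a quinone reductase, of -0.80 ± 0.07 (edgeR adjusted p = 5.94e-07, 1.43e-06, 6.20e-06 and 4.07e-06). Other targets had values near 0: the glutathione synthesis genes GCLC and GCLM and the cystine transporter SLC7A11, chosen after their values were seen, had log2 fold changes of -0.02 ± 0.07, -0.05 ± 0.08 and -0.01 ± 0.09. NFE2L2, which encodes NRF2, stood at 115 ± 9.59 CPM in received and 113 ± 5.91 in not-received cells (edgeR adjusted p = 0.818). KEAP1, which targets NRF2 for degradation, stood at 80.4 ± 2.77 and 83.5 ± 8.12 CPM (edgeR adjusted p = 0.662). The gene called higher, named after its value was seen, was BACH1, a repressor of NRF2 target genes (0.30 ± 0.08, edgeR adjusted p = 0.0172), a call lost without received replicate 1 or 2.

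Other enzymes that act on aldehydes and ketones went both ways. Of 30 genes 23 were tested, of which 3 were called lower and 5 higher (median log2 fold change 0.07), against 9.67% and 9.21% of all genes tested. ALDH2, the mitochondrial acetaldehyde dehydrogenase, was the lowest (-1.11 ± 0.15, edgeR adjusted p = 2.04e-04), followed by ALDH3B1 (-0.53 ± 0.07) and ALDH1L2 (-0.35 ± 0.08), the last not called without received replicate 3. CBR4, a carbonyl reductase of mitochondria, was the highest (0.46 ± 0.11, edgeR adjusted p = 0.0127), and its call was lost without any 1 received library. SORD, sorbitol dehydrogenase, which acts after AKR1B1 in the polyol pathway, stood at 66.4 ± 3.90 CPM in received and 55.9 ± 3.20 in not-received cells (0.25 ± 0.07, edgeR adjusted p = 0.0278), a call lost without received replicate 1 or 3. The other genes called higher, named after their values were seen, were ALDH1B1 (0.29 ± 0.09), ALDH1A3 (0.23 ± 0.07) and ESD (0.20 ± 0.07). ALDH1B1 lost its call when any received library was left out, or the second of the not-received ones, and ESD in those cases, without not-received replicate 1, by limma-voom and with the replicate block. ALDH1A3 lost it by limma-voom and without not-received replicate 1 or 3 or received replicate 1 or 2. Without received replicate 1, 2 or 3 the count of 5 was 0, 1 or 1. Without not-received replicate 1 or 2 it was 3 in each case, and lower calls were 5 without the second of these.

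The next list held enzymes that share steroid or prostaglandin substrates with the AKR1C genes. Of 41 genes 21 were tested, of which 2 were called lower and 2 higher (median log2 fold change 0.06). That is 19.0% of the list in all, near the 18.9% called over all genes tested, so nothing is read from the count. The lower genes were STS, steroid sulfatase (-0.74 ± 0.13, edgeR adjusted p = 0.00146), and PTGFRN, a membrane protein named for its inhibition of the prostaglandin F receptor (-0.43 ± 0.10, edgeR adjusted p = 0.0155, not called without received replicate 1 or 3). PTGR2, a prostaglandin reductase, was higher at 16.6 ± 0.852 against 10.5 ± 0.297 CPM (0.65 ± 0.10, edgeR adjusted p = 5.73e-04). HSD17B11, a steroid dehydrogenase, was also called higher (0.27 ± 0.09, edgeR adjusted p = 0.0445), a call that ended with DESeq2, limma-voom, the replicate block or any 1 library left out except not-received replicate 3. PTGS2, the inducible cyclooxygenase, stood at 19.0 ± 2.78 CPM in received and 15.7 ± 1.04 in not-received cells and was not called (edgeR adjusted p = 0.101) except without received replicate 3. Without received replicate 1 the calls of this list were 2 in all, against 4.

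AKR1B1 is also an osmotic response gene, under the transcription factor NFAT5. Of 7 genes of that response 6 were tested, of which 4 were called lower and 0 higher (median log2 fold change -0.43). Among all genes tested 9.67% were called lower and 9.21% higher, and the count is again a description only. The taurine transporter SLC6A6 (-0.66 ± 0.15), the amino acid transporter SLC38A2 (-0.48 ± 0.06) and the inositol transporter SLC5A3 (-0.37 ± 0.06) were lower (edgeR adjusted p = 0.0183, 8.10e-05 and 0.00120). So was the water channel AQP1, named after its value was seen, at 1.22 ± 0.272 against 2.41 ± 0.465 CPM. SLC6A6 was not called without any 1 received library, AQP1 was not called without not-received replicate 3 or received replicate 2 or 3 nor by DESeq2, and the count was 2 without received replicate 2 or 3. NFAT5 itself, also named after its value was seen, was not called, at -0.21 ± 0.07 on the log2 scale (edgeR adjusted p = 0.0540). It was called lower without not-received replicate 1 or 3 and with no filter on low counts.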

How the data were processed

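The deposited files hold, for each of 6 libraries, unnormalized read counts as whole numbers for 54628 gene symbols. RNA was captured by poly-T beads and read as 150 bp pairs, per the labels' protocols. DESeq and R 3.6.1 are the tools named in the submitters' processing notes. The sources used here do not give the aligner, counter, strand setting, build or annotation, and overlapping or duplicated genes may share reads.

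Genes were filtered with filterByExpr (14100 kept), scaled by TMM and tested in edgeR 4.0.16 (R 4.3.3) by the quasi-likelihood functions glmQLFit, robust, and glmQLFTest, with the group as the single term and Benjamini-Hochberg adjustment over all genes. An adjusted p under 0.05 is a call. CPM are TMM-scaled, and SEs were taken as the size of the log2 fold change over the square root of F. Replicates varied with a common biological coefficient of variation of 9.47%. Replicates were not duplicates: chi-square per gene was 3.40 to 20.6 within groups. On simulated counts the fit recovered most changed genes, and false calls went well past the set rate where each gene had its own spread, so every call is less certain than its adjusted p states.

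Coding sequences come from GENCODE 29 and upstream sequences from RefSeq, aligned with Biopython 1.88. The CCAAT search and the neighbouring genes were added after the sequences and values were seen. The family and gene lists were chosen with earlier results of these data known. Genes are named by a rule. It takes all 8 family genes, other AKR rows, 6 fixed genes and the 5 genes most like AKR1C1 and AKR1B1. It also takes up to 4 called genes of each list with the largest fold change and an average log2 CPM of at least 1. Against the rule, AKR1B1P1 (0 to 8 counts a library), AKR1C8 (1 to 7) and pseudogenes with at most 1 count were not named. Genes named outside the rule are marked. Alternatives were RLE factors, library size alone, DESeq2 1.42.0, limma-voom (limma 3.58.1), other low-count filters, a replicate block, summed paralogs and each library left out.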

Additional observations from a re-analysis of the deposited data

How the results depend on the processing

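The log2 fold change of AKR1C1 (-1.33) ran from -1.43 to -1.24 with 1 library left out and from -1.33 to -1.29 under the other settings, and that of the summed AKR1C genes (-1.12) from -1.22 to -1.05 and from -1.12 to -1.08. The calls of AKR1C1 and AKR1C2 held in each of these fits. With 1 library left out, the count of all genes called ran from 1295 (without received replicate 2) to 2935 (without not-received replicate 2), against 2662, and was 1341 and 1409 without received replicates 1 and 3. The family genes called ran from 2 to 4. Over the same fits the further superfamily list ran from 0 to 1, the list of aldehyde and ketone enzymes from 3 to 8, the steroid and prostaglandin list from 2 to 6 and the osmotic list from 2 to 5. The part played by fewer libraries in these losses was not tested. With the replicate number as a block, 2636 genes were called and AKR1C1 had a log2 fold change of -1.32. Same-numbered libraries deviated from their group means with correlations of -0.20, -0.07 and 0.05, and differently numbered ones with -0.19 to 0.25. With 3 libraries in a group these values cannot tell whether a number marks a shared culture. AKR1B15 and AKR1C4 are limited by depth.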
